A study of Canis lupus familiaris with 6 samples.

Results

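The TGF-beta superfamily is a group of secreted growth factors that includes the transforming growth factors beta, the bone morphogenetic proteins (BMPs), the growth and differentiation factors (GDFs) and the activins. A dimer of ligand brings type II and type I receptor kinases together, and the type I kinase phosphorylates receptor-regulated SMAD proteins. These join the common SMAD4 and enter the nucleus, while SMAD6 and SMAD7 inhibit the pathway. SMAD2 and SMAD3 carry TGF-beta and activin signals, and SMAD1, SMAD5 and SMAD9 carry BMP signals. In the heart, TGF-beta is known as an activator of fibroblasts and of matrix production, and BMPs for their part in cardiac development.

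The members described here were all genes whose symbol in the array annotation is that of a TGF-beta or its receptor, a numbered BMP or GDF, a BMP receptor, an INHB activin subunit, an activin receptor or a SMAD, with GDF15 left out. The rule found 41 genes of the 15115 genes with a probe set of exactly 1 symbol, measured by 72 probe sets. They comprised 3 TGF-beta ligands, 8 BMP ligands, the protease BMP1, 6 GDFs, 4 activin subunits, 7 type I receptors, 3 type II receptors, the type III receptor TGFBR3 and 8 SMADs. The members had 1 probe set in 23 cases, 2 in 8, 3 in 9 and 6 in 1 (TGFBR2). BMPR2, GDF1, GDF6 and GDF7 were not analysed here.

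RNA from frozen left ventricle of 6 dogs was hybridised to Affymetrix canine arrays, 1 array per dog. The affected group held 3 Great Danes with dilated cardiomyopathy, a female of 9 years (affected 1) and males of 7 years (affected 2 and affected 3). The control group held a male Labrador retriever of 12 years (control 1), a female St. Bernard of 10 years (control 2) and a male Greater Swiss Mountain dog of 4 years (control 3). No treatment is named in the labels, and since every affected dog was a Great Dane and no control was, breed and disease cannot be told apart.

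Each deposited value is a log2 difference from the median of its probe set over the 6 arrays. A value of 1 is therefore a doubling relative to that median, and the values hold no expression level. For this reason neither the tissue nor the presence of a transcript could be checked against marker genes, and no gene's level is compared with another's. A gene value is the mean over the gene's probe sets. In these bulk samples, fewer cells of a type and less RNA per cell cannot be told apart. Control 3 stood apart, with 1683 of 42924 probe sets below -1, against 161 to 379 on the affected arrays and 429 and 510 on the other controls. The tag controls, 17 probe sets for sequences absent from the sample, averaged -0.03, -0.03 and -0.01 on affected 1, 2 and 3, against 0.06, 0.01 and 0.13 on control 1, 2 and 3. A small offset between the groups was thus present in probe sets with no target.

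Affected hearts were set against control hearts to ask which signalling genes differ in the diseased ventricle. No member passed the threshold of an adjusted p under 0.05 in limma, a linear model with moderated variances (smallest adjusted p = 0.322). None of the 15115 genes passed it either (0%). At an unadjusted limma p under 0.05, which does not control false calls, BMP5, SMAD9 and INHBE lay above the controls and TGFB3 below them. Those 3 higher members are 7.32% of the 41, where 4.88% of all genes were higher at that p, and the 1 lower member is 2.44%, where 5.64% of all genes were lower. Both shares were near the background. Without regard to p, the same 3 genes lay wholly above the controls, against 5.8% of all genes. The count of higher members was 1 without control 1, where 4.76% of all genes were higher at that p. It was also 1 without control 3, where 2.63% of all genes were higher. The count of lower members was 2 without affected 2, where 3.29% of all genes were lower. It was 12 without control 2, where 24.0% of all genes were lower at that p and 11 of the 12 ran with the tag controls.

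**Figure D1:**
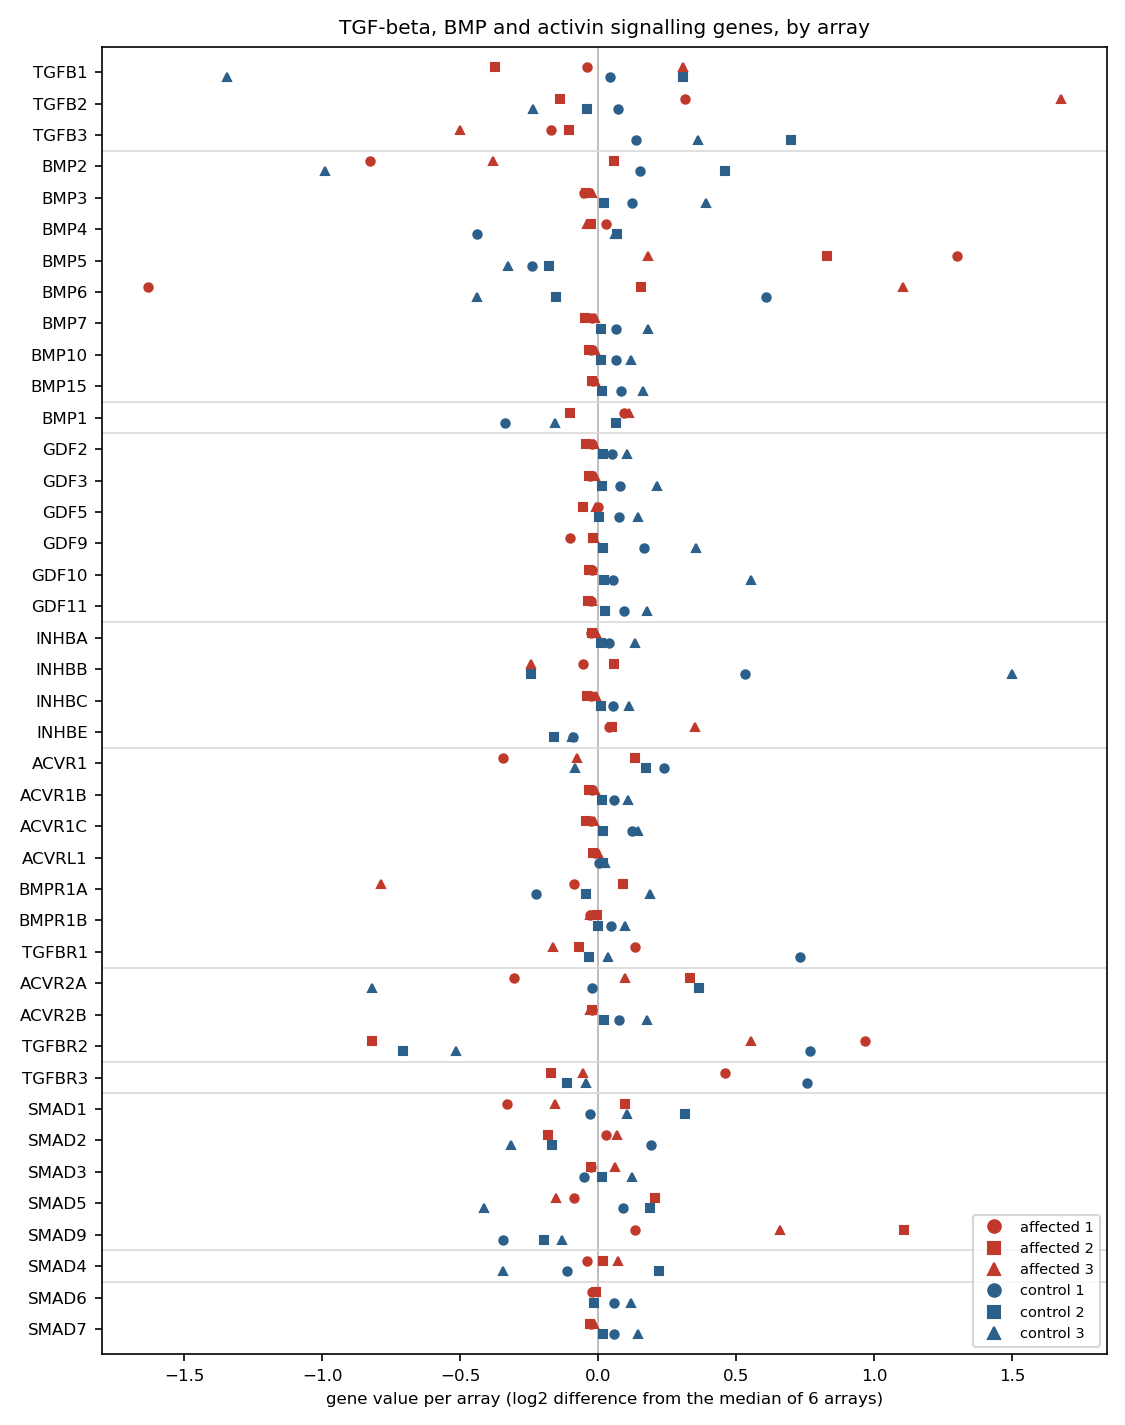
Gene values of the 41 members on each array (log2 difference from the median of the 6 arrays, horizontal), grouped by role from ligands at the top to inhibitory SMADs at the bottom; red symbols are the 3 affected and blue symbols the 3 control dogs. BMP5, SMAD9 and INHBE have all affected values above all control values. In 19 members, TGFB3 among them, all affected values lie below all control values, and many genes lie in a narrow band around 0.

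The values of 19 of the 41 genes (46.3%) correlated with the tag mean over the 6 arrays at r over 0.9, and so did 37.8% of all genes. These correlations describe 6 arrays that share their background. INHBB was among these 19 but varied far more than the tags. The other 18 lay between -0.10 and 0.00 on the affected arrays, against -0.02 to 0.17 on control 1 and control 2 and 0.10 to 0.55 on control 3, and their differences ran from -0.23 to -0.07. In 17 of these 18 genes every affected value lay below every control value. Such separation was also found in 41.7% of all genes, and in 93.5% of all genes that followed the tags at r over 0.9, so it says nothing particular about the members. Among the 22 members that did not follow the tags, 3 lay above the controls without overlap, or 13.6%, against 9.33% of all such genes, and 2 lay below, or 9.09%, against 10.2%. Over all 41 members the median difference was -0.09, against -0.07 over all genes.

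Among the TGF-beta ligands, TGFB3 had the smallest p of all members. TGFB3 encodes 1 of the 3 TGF-beta isoforms, which share their receptors. Its gene value was -0.17, -0.11 and -0.50 in affected 1, 2 and 3, against 0.14, 0.70 and 0.36 in control 1, 2 and 3. The groups did not overlap, with a mean of -0.26 ± 0.21 in affected and 0.40 ± 0.28 in control hearts (SD, n = 3 each). The difference was -0.66 (SE 0.18, limma unadjusted p = 0.0137, adjusted p = 0.322), with a 95% interval from -1.12 to -0.20. Its 3 probe sets differed in which dogs were apart. One gave -0.67, -0.05 and -0.70 in the affected dogs, against 0.05, 0.43 and 1.24 in the controls, with control 3 highest. Another gave 0.20, -0.20 and -0.78 in the affected dogs, against 0.20, 1.65 and -0.47 in the controls, with control 2 highest and the groups overlapping. The last followed the tags and differed by -0.22. When the probe set with the largest range stood for the gene, the difference was -0.72 with an unadjusted p of 0.289.

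TGFB2, the isoform with the largest single value, was high in 1 dog. It had values of 0.31, -0.14 and 1.68 in affected 1, 2 and 3, against 0.07, -0.04 and -0.24 in control 1, 2 and 3. Affected 3 was highest in both probe sets, at 1.19 and 2.17, and affected 2 lay inside the range of the controls. The difference was 0.69 (SE 0.48, limma adjusted p = 0.360) and was 0.16 without affected 3. TGFB1, the isoform best known in fibrosis, had -0.04, -0.37 and 0.31 in affected 1, 2 and 3, against 0.04, 0.31 and -1.35 in control 1, 2 and 3. The groups overlapped, and the difference of 0.30 (SE 0.48, limma adjusted p = 0.677) became -0.21 without control 3, the array with many low probe sets.

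**Figure D2:**
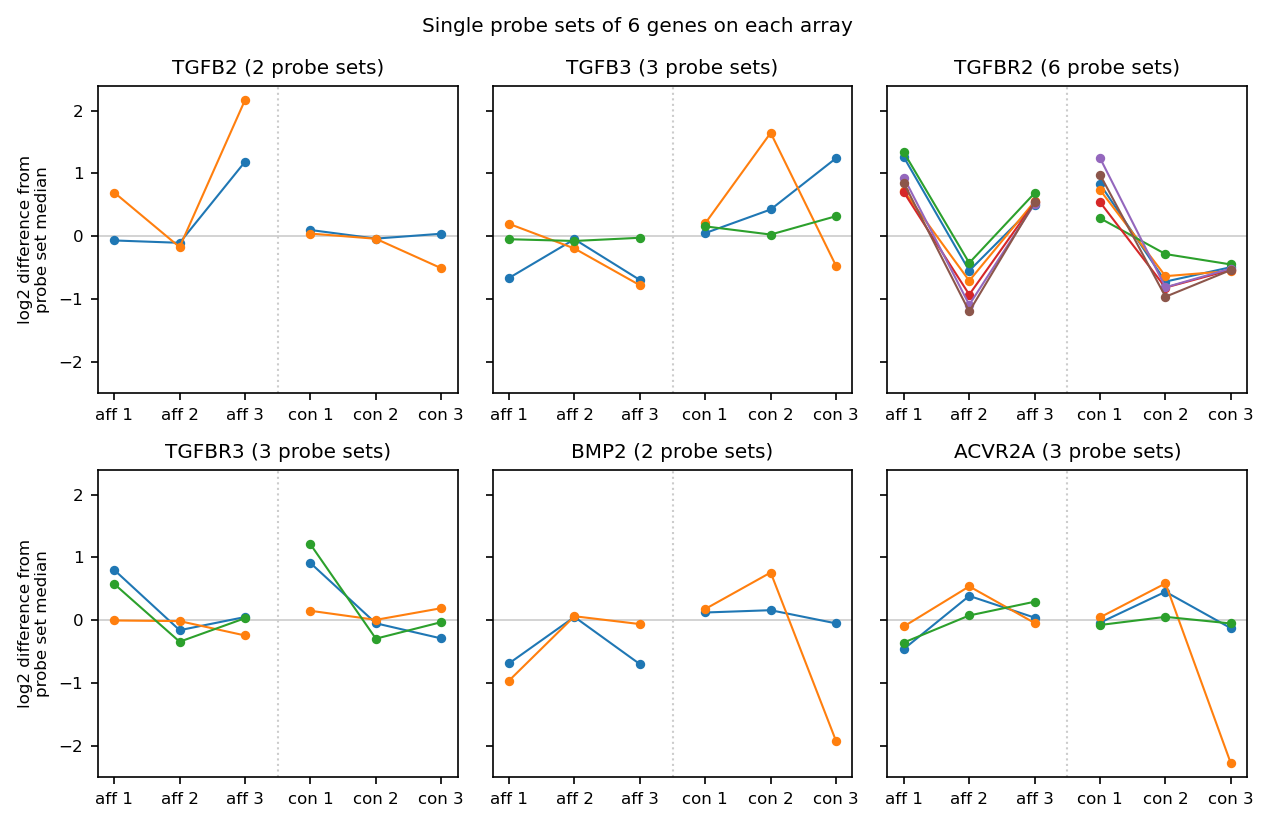
Values of single probe sets (log2, centred on each probe set's median, vertical) on the 3 affected (aff) and 3 control (con) arrays for 6 members; each coloured line joins the values of 1 probe set within a group. The 6 probe sets of TGFBR2 run together, those of TGFB3 do not, 1 probe set of ACVR2A is low on control 3 alone, and 1 of BMP2 is low on control 3 and affected 1.

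BMP5 had the largest difference among the BMP ligands and among all members. It encodes a BMP with a part in skeletal and cardiac development, known from mice. BMP5 had values of 1.30, 0.83 and 0.18 in affected 1, 2 and 3, against -0.24, -0.18 and -0.33 in control 1, 2 and 3. The affected dogs spread widely, from just above the controls in affected 3 to the highest value in affected 1, while the controls lay close together. The means were 0.77 ± 0.56 in affected and -0.25 ± 0.08 in control hearts (SD, n = 3 each). The difference was 1.02 (SE 0.29, limma unadjusted p = 0.0152, adjusted p = 0.322), or 2.03-fold, with a 95% interval from 0.29 to 1.75. A separation of at least 1.5-fold without overlap upward was found in 2 members, BMP5 and SMAD9, and in 2.29% of all genes; downward it was found in 1 member, TGFB3, and in 1.06% of all genes. Without control 3 the difference of BMP5 was 0.98 with an unadjusted p of 0.0556. BMP5 rested on 1 probe set.

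BMP6, a ligand known for the control of iron metabolism through hepcidin in liver, had the widest range of all members, 2.73. It lay at -1.63, 0.15 and 1.10 in affected 1, 2 and 3, against 0.61, -0.15 and -0.44 in control 1, 2 and 3. The lowest and the highest value were thus both in affected dogs, and the difference of -0.13 (SE 0.75) was far within this spread. BMP2, a ligand needed for valve formation in the mouse heart, was measured by a pair of probe sets that disagreed. One differed by -0.52, with -0.69, 0.05 and -0.70 in affected 1, 2 and 3, against 0.12, 0.16 and -0.05 in the controls. The other differed by 0.01 and was low in affected 1 (-0.96) and in control 3 (-1.93). BMP4, a ligand of early mesoderm, differed by 0.09 (SE 0.15), with control 1 alone low at -0.44. BMP6 and BMP2 were chosen for their spread after their values were seen, and BMP4 was also described with its values known.

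The remaining BMP ligands, BMP3, BMP7, BMP10 and BMP15, followed the tags. BMP10, which is made in the atria of adult mice, differed by -0.09. BMP7, which opposes TGF-beta in kidney fibrosis models in mice, had -0.02, -0.05 and -0.01 in the affected dogs, against 0.06, 0.01 and 0.18 in the controls, and its 3 probe sets all followed the tags. BMP3 had -0.05, -0.05 and -0.02 in affected dogs, against 0.12, 0.02 and 0.39 in controls. BMP15, an oocyte factor, had -0.02, -0.02 and -0.01 in affected dogs, against 0.08, 0.01 and 0.16 in controls. In these genes control 3 was highest, as in the tags. After subtraction of the tag mean, BMP3 differed by -0.12, BMP7 by -0.02 and BMP15 by -0.01. BMP1 is not a ligand but a protease that trims procollagens, and it differed by 0.18 (SE 0.12) with overlapping groups.

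All 6 GDFs followed the tags. GDF9, an oocyte factor like BMP15, had -0.10, -0.02 and -0.02 in affected dogs, against 0.17, 0.02 and 0.35 in controls. GDF11, a close relative of myostatin, had -0.03, -0.04 and -0.02 in affected dogs, against 0.09, 0.02 and 0.18 in controls. GDF2, a liver-made ligand of endothelial cells also called BMP9, had -0.02, -0.04 and -0.02 in affected dogs, against 0.05, 0.02 and 0.10 in controls. GDF3 had -0.03, -0.03 and -0.01 in affected dogs, against 0.08, 0.01 and 0.21 in controls. GDF5, a ligand of joint formation, differed by -0.10. GDF10 differed by -0.23, with control 3 alone high at 0.55.

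The activin subunits form activins as dimers of beta subunits. INHBE, a subunit known mainly from liver, had 0.04, 0.05 and 0.35 in affected 1, 2 and 3, against -0.09, -0.16 and -0.09 in control 1, 2 and 3. The groups did not overlap, and the difference was small, at 0.26 (SE 0.10, limma unadjusted p = 0.0434, adjusted p = 0.322). One of its probe sets separated the groups, with a difference of 0.32, and the other did not, with 0.45 in affected 3 alone. Without affected 3 the difference of INHBE was 0.16. INHBB, whose product forms activin B, lay at -0.06, 0.06 and -0.24 in affected dogs, against 0.53, -0.25 and 1.50 in controls. Control 1 and control 3 were high and control 2 as low as affected 3, and the difference of -0.68 (SE 0.45, limma adjusted p = 0.342) was within the control SD of 0.87. INHBA, the activin A subunit, and INHBC followed the tags, with a difference of -0.08 each.

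**Figure D3:**
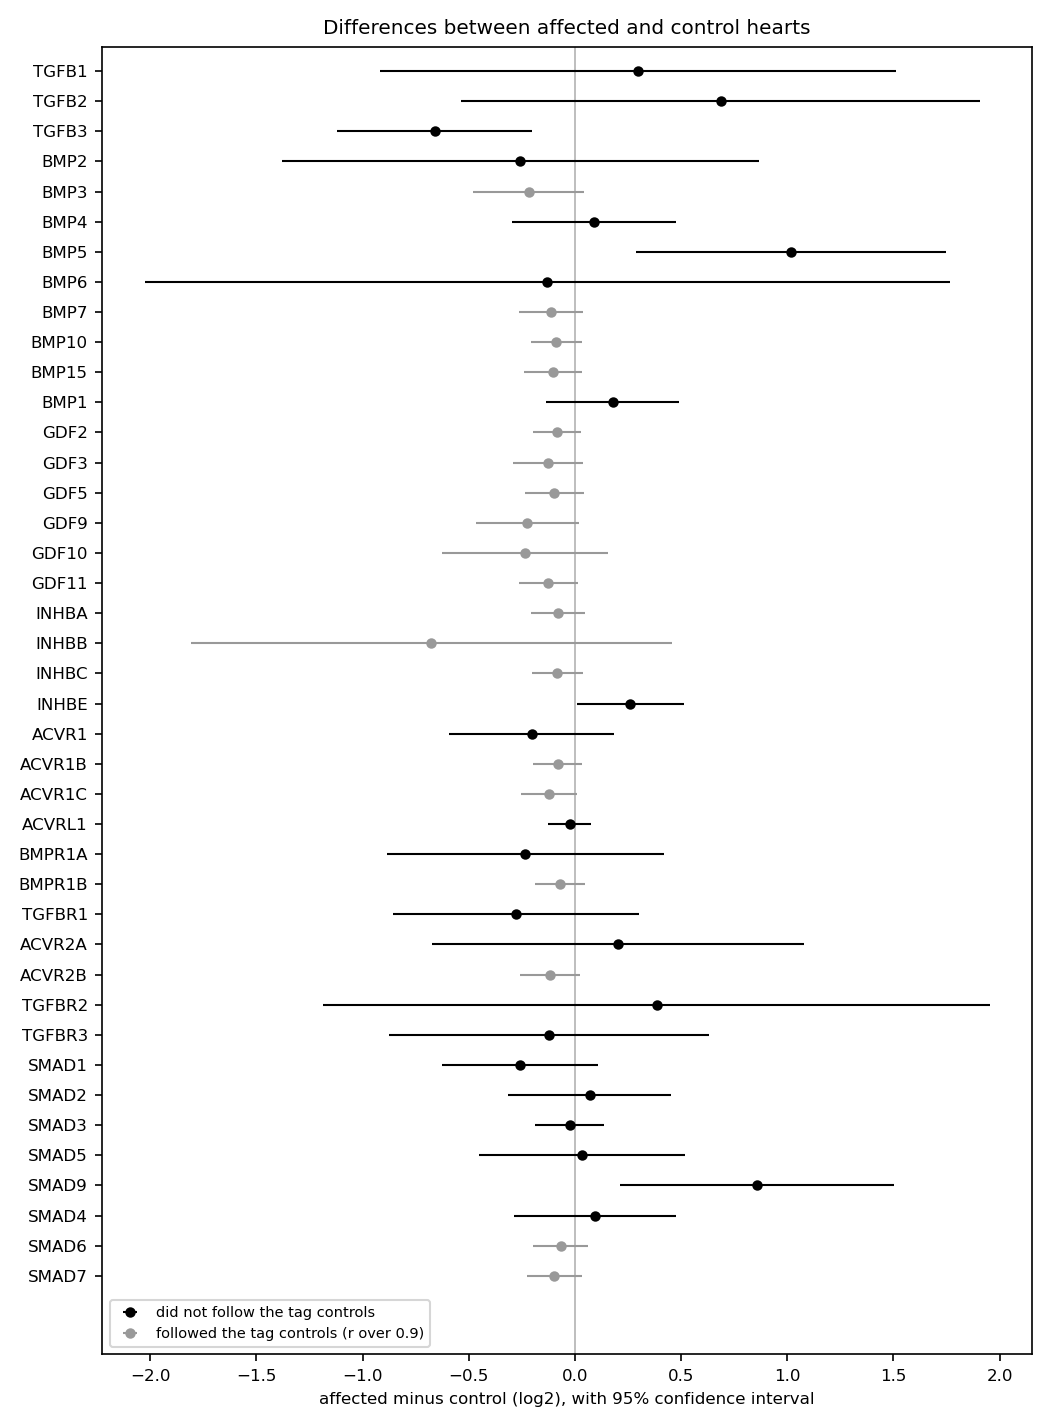
Differences between affected and control hearts (log2, horizontal) for the 41 members, with 95% confidence intervals from limma, n = 3 dogs against 3; grey points are the 19 genes that followed the tag controls. The intervals of TGFB3, BMP5, SMAD9 and INHBE leave out 0 before adjustment for multiple tests, and the grey points lie to the left of 0.

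TGFBR2, the type II receptor that binds TGF-beta directly, was the member measured most often, and its 6 probe sets gave the same order of dogs in broad terms. The gene value was 0.96, -0.82 and 0.55 in affected 1, 2 and 3, against 0.77, -0.71 and -0.52 in control 1, 2 and 3. Affected 1, affected 3 and control 1 were high and the other dogs low in every one of the 6 probe sets, so the split ran across the groups. The difference was 0.38 (SE 0.62, limma adjusted p = 0.675), with SDs of 0.93 in affected and 0.80 in control hearts and a 95% interval from -1.19 to 1.95. The difference of TGFBR2 was 0.02 without affected 1, 0.91 without affected 2 and 0.84 without control 1. Differences of single probe sets ran from 0.15 to 0.68. Macrophage and monocyte markers (10 of 10 measured) had a median of 1.65, -0.12 and -0.02 in affected 1, 2 and 3, against 0.69, -0.40 and -0.43 in control 1, 2 and 3. They too were highest in affected 1 and control 1, and their part in the TGFBR2 values was not tested. Fibroblast markers (10 of 10 measured) had medians of 0.93, 0.02 and 0.60 in affected dogs, against -0.28, -0.05 and -1.30 in controls.

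TGFBR3, or betaglycan, a co-receptor that presents TGF-beta2, was likewise highest in control 1 and affected 1. It had 0.46, -0.17 and -0.05 in affected 1, 2 and 3, against 0.76, -0.11 and -0.04 in control 1, 2 and 3, with a difference of -0.12 (SE 0.30, limma adjusted p = 0.786). That difference was 0.16 without control 1. TGFBR1, the type I receptor of TGF-beta, had 0.13, -0.07 and -0.17 in affected dogs, against 0.73, -0.04 and 0.04 in controls. Control 1 was again the highest, and the difference of -0.28 (SE 0.23, limma adjusted p = 0.417) was -0.03 without that array. In all 3 TGF-beta receptors the groups overlapped.

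No BMP or activin receptor passed the unadjusted or the adjusted threshold. BMPR1A, a type I BMP receptor, was low in affected 3 (-0.79) and differed by -0.23 (SE 0.26). Its probe sets disagreed in direction, with differences of -0.59 (-1.30 in affected 3) and 0.12 (-0.28 in affected 3). ACVR1, a type I receptor used by BMPs, differed by -0.20 (SE 0.15), with -0.35 in affected 1 as its lowest value. ACVR2A, a type II receptor of activins and BMPs, differed by 0.20 (SE 0.35), and 1 of its 3 probe sets lay at -2.28 in control 3 where the others were at -0.13 and -0.05. ACVR1C had -0.03, -0.05 and -0.02 in affected dogs, against 0.12, 0.02 and 0.14 in controls, and ACVR2B had -0.02, -0.02 and -0.03, against 0.07, 0.02 and 0.18. Both followed the tags, as did ACVR1B and BMPR1B. ACVRL1, an endothelial type I receptor, varied least of all members, with a range of 0.04.

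Among the SMADs, SMAD9 alone separated the groups outside the tag pattern. SMAD9, also called SMAD8, is phosphorylated by BMP type I receptors. Its values were 0.13, 1.11 and 0.66 in affected 1, 2 and 3, against -0.34, -0.20 and -0.13 in control 1, 2 and 3. Affected 2 was the highest dog and affected 1 the lowest of the affected, whereas BMP5 was highest in affected 1. SMAD9 had means of 0.63 ± 0.49 in affected and -0.22 ± 0.11 in control hearts (SD, n = 3 each), and the difference was 0.86 (SE 0.25, limma unadjusted p = 0.0183, adjusted p = 0.322), or 1.81-fold. Without affected 2 it was 0.62. The unadjusted p was 0.0546 without control 1 and 0.0521 without control 2. SMAD9 rested on 1 probe set.

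The other BMP-regulated SMADs did not run with SMAD9. SMAD1 differed by -0.26 (SE 0.14, limma adjusted p = 0.322) with overlapping groups and SMAD5 by 0.03 (SE 0.19). The SMADs of the TGF-beta branch and SMAD4 had overlapping groups. SMAD2 had 0.03, -0.18 and 0.07 in affected dogs, against 0.19, -0.17 and -0.32 in controls, and differed by 0.07 with a 95% interval from -0.32 to 0.45. SMAD3 had -0.03, -0.03 and 0.06 in affected dogs, against -0.05, 0.01 and 0.12 in controls, and its difference of -0.02 had an interval from -0.19 to 0.14. A pair of its 3 probe sets followed the tags. SMAD4 had -0.04, 0.02 and 0.07 in affected dogs, against -0.11, 0.22 and -0.35 in controls, with a difference of 0.09 and an interval from -0.29 to 0.48. The inhibitory SMADs followed the tags. SMAD7 had -0.03, -0.03 and -0.02 in affected dogs, against 0.06, 0.02 and 0.14 in controls, and SMAD6 had -0.02, -0.01 and -0.01, against 0.06, -0.02 and 0.12.

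Other genes of the pathway were taken from 6 lists of its regulators and response genes, and none passed the adjusted threshold (limma, adjusted p of at least 0.322). The counts at an unadjusted p under 0.05 below stand beside 4.88% of all genes higher and 5.64% lower, and the list medians beside -0.07 over all genes. Of 10 further ligands and accessory receptors measured, BAMBI alone was higher at an unadjusted limma p under 0.05 and none was lower. The list median was -0.11, and -0.07 without affected 1. It was 0.22 with either range filter and -0.01 after subtraction of the tag mean, and 5 of the 10 genes followed the tags. BAMBI is a pseudoreceptor that lacks the kinase domain and dampens signalling. It had 1.11, 0.34 and 0.67 in affected 1, 2 and 3, against -0.65, -0.44 and -0.34 in control 1, 2 and 3. The groups lay clearly apart, with means of 0.71 ± 0.39 in affected and -0.48 ± 0.16 in control hearts (SD, n = 3 each) and a difference of 1.18 (SE 0.21, limma unadjusted p = 0.00224, adjusted p = 0.322), or 2.27-fold. BAMBI kept an unadjusted p under 0.05 in all 17 alternatives run, with differences from 0.81 to 1.37. It rested on 1 probe set, so the alternatives that choose among probe sets could not change its difference. RGMA, TDGF1 and NODAL came next, at -0.12, -0.13 and -0.13. RGMA and NODAL followed the tags at r over 0.9, and both differed by -0.03 after subtraction of the tag mean.

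Of 10 BMP response genes measured, 1 was higher and 1 lower at that p, with a list median of -0.20 that was -0.11 without affected 1 and -0.11 without control 3. ID3, a helix-loop-helix inhibitor that BMPs induce, had 0.32, 0.11 and 0.53 in affected 1, 2 and 3, against -0.49, -0.16 and -0.29 in control 1, 2 and 3. The groups did not overlap, the difference was 0.63 (SE 0.14, limma unadjusted p = 0.00539, adjusted p = 0.322), and its probe sets gave 0.67 and 0.60. MSX2, a homeobox factor, differed by -0.43 (SE 0.14), RUNX2 by -0.20 and HEY1 by -0.20. The MSX2 probe sets differed by -0.37 and -0.48, at limma unadjusted p of 0.185 and 0.148. The former was high in control 2 alone (0.74), with overlapping groups. The latter was high in control 3 alone (0.98) and followed the tags. MSX2 kept an unadjusted limma p under 0.05 in 6 of 17 alternatives. RUNX2 followed the tags and differed by -0.10 after subtraction of their mean.

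Genes of latent TGF-beta storage and activation included 2 higher and 0 lower of 16 at that p, with a list median of 0.15 that was 0.04 without affected 1. ITGB5, the integrin beta5 subunit that can release TGF-beta from its latent complex, had 0.61, 0.11 and 0.42 in affected 1, 2 and 3, against -0.42, -0.14 and -0.27 in control 1, 2 and 3. The difference was 0.65 (SE 0.15, limma unadjusted p = 0.00664, adjusted p = 0.322), and it came from 4 of 5 probe sets with 0.74 to 1.00, while the last followed the tags. LTBP3, a latent TGF-beta binding protein, had 1.33, 0.03 and 0.74 in affected 1, 2 and 3, against -0.19, -0.14 and -0.57 in control 1, 2 and 3. Affected 2 was close to the controls, and the difference was 1.00 (SE 0.35, limma adjusted p = 0.322). Its 4 probe sets ran from 0.05 to 1.80. ITGB8 and ITGAV came next at -0.11 and 0.19, and ITGB8 ran with the tags. The 5 probe sets of ITGAV ran from -0.27 to 0.81, and those that differed downward followed the tags.

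Of 19 extracellular binding proteins and antagonists measured, 3 were higher and 1 lower at that p, with a list median of -0.07 that was -0.04 without control 3. The higher ones were the small leucine-rich proteoglycans BGN at 1.65 (SE 0.50), ASPN at 1.61 (SE 0.50) and DCN at 1.03 (SE 0.37), which can bind TGF-beta. DCN is also among the fibroblast markers. BGN had 0.81, 0.39 and 1.17 in affected 1, 2 and 3, against -0.31, -0.35 and -1.92 in control 1, 2 and 3, so control 3 widened the difference, which was 1.12 without it. ASPN differed by 1.07 without control 3. CER1, an antagonist in the embryo, differed by -0.20. Among 21 intracellular regulators 1 was higher and 2 were lower, with a list median of -0.01 that ran from -0.06 without control 1 to -0.00 without affected 1. ZFYVE9, or SARA, which brings SMAD2 and SMAD3 to the receptor, differed by 0.82 (SE 0.26) and TRIM33, a ubiquitin ligase of SMAD4, by -0.21 (SE 0.07). For TRIM33, 1 probe set followed the tags and differed by -0.38, and the other differed by -0.04 with overlapping groups. STRAP, which binds SMAD7 and the receptors, had -1.31, -0.46 and -1.29 in affected 1, 2 and 3, against 4.06, 0.92 and 0.47 in control 1, 2 and 3. Its difference of -2.83 (SE 1.01) was -1.71 without control 1. FOXH1, a partner of SMAD2, differed by -0.19 and by -0.10 after subtraction of the mean of the tags, which it followed.

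The list of TGF-beta response genes had 4 of 23 higher and 0 lower at that p, beside 4.88% and 5.64% of all genes, with a median of 0.27 against -0.07 over all genes. That median was 0.12 without affected 1, 0.55 without control 1 and 0.01 with a term for affected 1 and affected 3. These 4 were SNAI2 at 1.23 (SE 0.39), POSTN at 2.93 (SE 0.92), COL1A1 at 1.75 (SE 0.55) and COL3A1 at 1.39 (SE 0.48), a transcription factor and 3 matrix genes. SNAI2, a repressor of epithelial genes, had 0.92, 0.16 and 0.74 in affected 1, 2 and 3, against -0.33, -0.16 and -1.37 in control 1, 2 and 3. In all 4 genes affected 2 was the lowest of the affected dogs, at 0.13 to 0.31. Control 3 was the lowest of all dogs in SNAI2, COL1A1 and COL3A1, and control 2 was the lowest in POSTN. Without control 3, COL3A1 differed by 0.96 and the list median was 0.31. Of the 10 fibroblast markers, 7 differed upward, COL1A1 and COL3A1 among them, and 3 downward, with PDGFRA at -0.69, TCF21 at -0.18 and MFAP5 at -0.06. The actin control probe sets, whose 3′ minus 5′ signal is a sign of RNA quality, gave 0.31, -0.18 and 0.58 in affected 1, 2 and 3, against 0.08, 0.11 and -0.34 in control 1, 2 and 3. The actin values too were highest in affected 3 and affected 1. The same measure from the GAPDH control probe sets was highest in control 2 and affected 2. It gave 0.02, 0.14 and -0.03 in affected 1, 2 and 3, against -0.04, 0.15 and -0.14 in control 1, 2 and 3. The part of fibroblast content and of RNA quality in the response gene values was not tested. The list's choice was made with the matrix results of these arrays known.

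**Figure D4:**
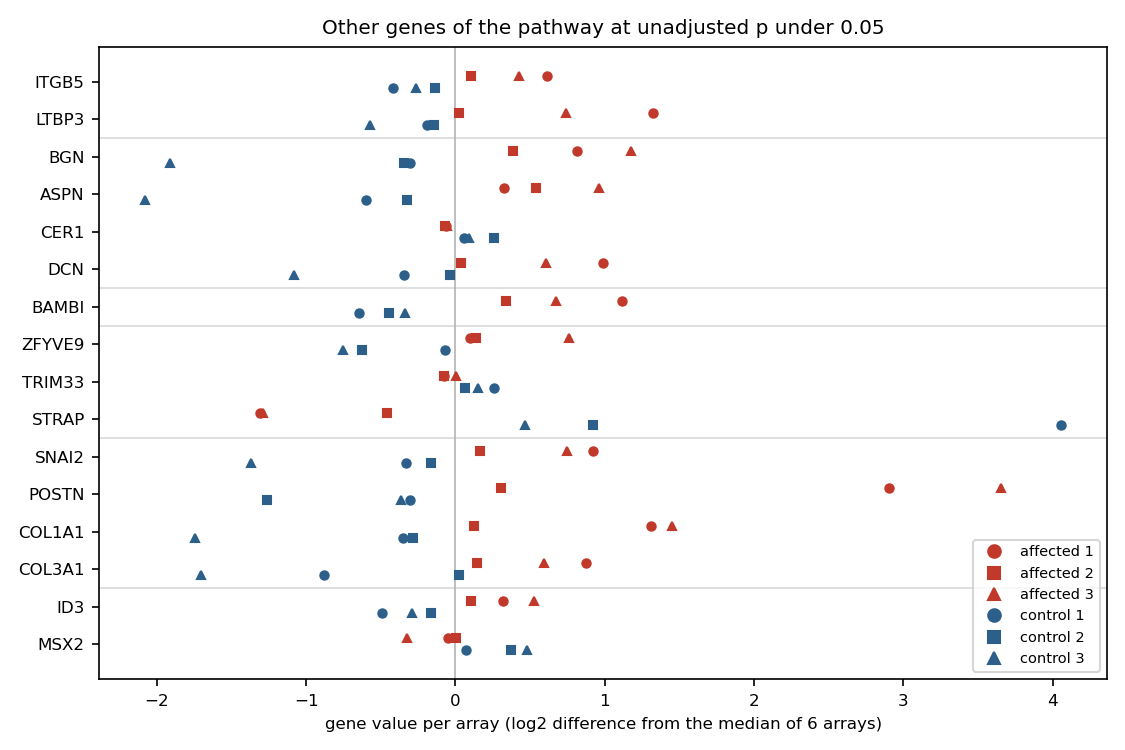
Gene values by array (log2 difference from the median of the 6 arrays, horizontal) for the pathway genes outside the 41 members that lay at an unadjusted limma p under 0.05 among the leading genes of each list, with red symbols for the affected and blue symbols for the control dogs. Grey lines part the lists, which run from latent complex genes at the top to BMP response genes at the bottom. In most of the higher genes affected 2 lies nearest to the controls.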

How the data were processed

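Left ventricular RNA of 3 affected and 3 control dogs was measured on 1 array each. The authors deposited values taken here as log2, each centred on its probe set's median over the 6 arrays (the median was 0 in all 43035 rows). GCRMA and MAS5 are named, per the submitters' processing notes, without saying which made these values; base 2 is an inference from GCRMA. The labels call the arrays biological replicates.

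The 111 control probe sets were left out, and the mean over probe sets with exactly 1 symbol in the array annotation gave 15115 gene values, without a filter. The test was limma's moderated two-sided test (version 3.58.1, R 4.3.3) in a model holding only the group, with 4 residual and 1.28 prior degrees of freedom, no variance trend and Benjamini-Hochberg adjustment over all genes. Differences are affected minus control. The fit was repeated on single probe sets and tested on simulated data. Precision is limited by the number of arrays.

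Values on every array are given for TGFB1 to TGFB3, TGFBR1 to TGFBR3, SMAD2, SMAD3, SMAD4, SMAD6 and SMAD7, for the 12 other members with the smallest p, and up to 4 genes per pathway list are named by smallest p. The members and lists were chosen with earlier results of these data known. The alternatives were 2 range filters, quantile normalization, median centring, the probe set with the largest range per gene, a variance trend, terms for sex, age, replicate number and affected 1 with affected 3, each array left out, and, added after seeing the data, subtraction of the tag control mean. The term for affected 1 with affected 3 leaves affected 2 alone to be set against the controls. No genome build or sequence was used.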

Additional observations from a re-analysis of the deposited data

How the results depend on the processing

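No member passed an adjusted p under 0.05 in limma in any of the 17 alternatives. TGFB3, BMP5, SMAD9 and INHBE kept their direction in all of them, with adjusted p between 0.162 and 0.659 and an unadjusted p under 0.05 in 15, 15, 15 and 7 of the 17. Over all genes, EPYC was the 1 gene that passed among probe sets in the upper 60% by range, and again the 1 gene among the upper 50%. The higher members at an unadjusted p under 0.05 were from 1 to 3 with 1 array left out, beside 2.63% to 6.97% of all genes. The lower members were 0 with the largest-range probe set (4.12% of all genes) and 2 with sex (5.78%). They were 7 with age, 6 of them following the tags, when 19.4% of all genes were lower. With 1 array left out they were from 1 to 12, beside 1.85% to 24.0% of all genes. The labels give no pairing of the dogs beyond the replicate number. Same-numbered dogs correlated at 0.25, 0.17 and 0.06 in their deviations from the group means, each dog best with its own number. Dogs of unlike number correlated at -0.23 to 0.03, and whether same-numbered arrays shared a batch was not tested. With the replicate block, 2 members were lower (SMAD1 and TGFB3) and 2 higher, beside 4.44% of all genes lower and 5.54% higher. The median difference over the members was -0.044 and 0.034 in the upper 60% and 50% by range (26 and 23 members left), -0.012 after quantile normalization, -0.015 after median centring and 0.0058 after subtraction of the tag mean. Higher against lower members were 12 against 29 as reported, 16 against 25 after median centring and 21 against 20 after that subtraction. Of 47 named genes, 9 changed sign in at least 1 alternative, among them TGFB1, TGFB2, TGFBR2 and TGFBR3, and none of these was called. TGFB2 and TGFBR2 did so only with the term for affected 1 and 3, where affected 2 stood alone against the controls. The list medians of extracellular and of intracellular regulators turned to 0.0053 and 0.058 after median centring, and that of the latent complex genes to -0.043 with the term for affected 1 and 3. For the further ligands and accessory receptors the list median turned to 0.22 in the upper 60% and again in the upper 50% by range. With breed and disease together and 3 dogs a group, single dogs limit every value.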
